A study of Arabidopsis thaliana with 4 samples.

Results

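The genes described here are 38 Arabidopsis cell cycle and DNA replication genes: the A, B and D cyclins, the cyclin-dependent kinases (CDKs) of the CDKA and CDKB classes, 4 CDK inhibitors, the MCM2 to MCM7 helicase subunits, PCNA1 and PCNA2, the kinase gene AUR1 and the cytokinesis gene KNOLLE. They were taken by their locus identifiers from a named list, which was chosen with earlier results of these data known. All 38 had a probe among the 25665 genes on the array, and 37 were bright enough to be among the 19492 genes tested. The exception was CYCA2;1, which was well above background on 0 of 4 arrays in either genotype.

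Seedlings of 2 transgenic genotypes in the Columbia-0 background were compared. The first carried 35S:AtERF4-HA and overexpressed ERF4, an ethylene response factor of the repressor type. The control carried 35S:NLS-GFP-HA, a green fluorescent protein directed to the nucleus. Both transgenes shared the 35S promoter of cauliflower mosaic virus, which is active in most plant tissues, and both carried an HA tag. All seedlings were 14 days old, untreated, and grown on agar with 0.5% sucrose at 23 degrees Celsius, with 16 h of light and 8 h of dark. Each of 4 biological replicates was 1 two-colour array that held RNA of both genotypes from a shared plate, with AtERF4-HA in the Cy3 dye on arrays 1 and 2 and in Cy5 on arrays 3 and 4. How many independent transgenic lines stood behind each genotype is not stated in the labels.

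In plants, D cyclins bound to CDKA release E2F factors from the retinoblastoma-related protein and so let a cell enter S phase, when the MCM helicase opens DNA and the PCNA clamp holds the polymerase on it. A and B cyclins with CDKB kinases act later, at S phase, G2 and mitosis, and KNOLLE is the syntaxin that fuses vesicles into the new cell wall. KRP and SIAMESE-type proteins inhibit these kinases, and many leaf cells then copy DNA without dividing. In a whole seedling of this age the transcripts come mainly from the shoot apex, young leaves and root tips. Since whole seedlings were measured, a change in the number of dividing cells and a change in RNA per cell cannot be told apart.

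Every value below is a log2 ratio of AtERF4-HA over control, or a normalised log2 signal of 1 genotype on 1 array, which is background-corrected and adjusted for dye. The direction follows the dye labels. The authors' deposited value table runs the other way by the same labels, control over AtERF4-HA, although the sample titles put AtERF4-HA over control. Which is right is unknown, and if the dyes were labelled the wrong way round every sign turns. Errors marked ± are standard errors of a limma fit over 4 arrays unless SD is stated, and a gene was called at a Benjamini-Hochberg adjusted p under 0.05 over all tested genes. By the labels, the overexpressed gene ERF4 (AT3G15210) had ratios of 0.98, 0.87, 0.82 and 1.04 on arrays 1 to 4, a mean of 0.93 ± 0.07 (1.91-fold, limma adjusted p = 0.0028). Spots had median signals of 122 to 140 (green) and 166 to 222 (red), against backgrounds of 58 to 60, and the ratios of the arrays correlated with each other at 0.70 to 0.87 across tested genes. All 37 members tested were well above background in both genotypes on all 4 arrays, and none was saturated.

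Differences between the genotypes were small. Of 37 members, 6 were called higher in AtERF4-HA seedlings: the cyclin genes CYCD3;1, CYCD3;2, CYCD4;1 and CYCB1;4 and the inhibitor genes KRP1 and SIM. Only CYCD2;1 and CYCD3;3 were called lower. None of the 8 reached a 2-fold difference, where 3.7% of all tested genes were both called and 2-fold apart. The share called, 21.6%, lies near that of all tested genes, 25.6%. In the higher direction it was 16.2% of members and 13.6% of all genes, and in the lower direction 5.41% of members and 11.9% of all genes. Of 6 genes often used as expression references, ACT2 was called lower at -0.34 ± 0.06 (limma adjusted p = 0.0232) and SAND higher at 0.20 ± 0.05 (limma adjusted p = 0.0489), sizes within the range of the called members' ratios or just under it.

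Most uncalled members also had ratios above 0. Fitted ratios were above 0 for 34 of 37 members (91.9%), where 52.3% of all tested genes were above 0. The members' median ratio was 0.24, with a range of -0.37 to 0.63, and the median over all tested genes was 0.01. The members' median was 0.14 without array 2 and 0.50 from the authors' value table, where the median over all genes was 0.16. Without adjustment, 17 members had a limma p under 0.05 in the higher direction and 2 in the lower. Of all 19492 tested genes, 4342 did so in the higher direction and 4008 in the lower. On all 4 arrays alike, 18 members (48.6%) had a ratio above 0, which 28.2% of all genes did, and 2 (5.41%) had a ratio below 0, which 25% of all genes did. Signals of the 2 genotypes did not overlap for 7 members in the higher direction (18.9%, background 17.1%) and for 2 in the lower (5.41%, background 16.4%). The 7 were CYCD3;1, CYCD3;2, KRP1, KRP2, SIM, MCM2 and MCM5.

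All 8 calls were lost when array 1 or array 2 was left out. Without array 1 limma called 0 members, where 1.31% of all genes were called higher and 2.19% lower. Without array 2 it again called 0, where 1.17% of all genes were called higher and 2.22% lower. At an unadjusted p under 0.05 the limma counts were then 22 members higher and 2 lower without array 1, and 5 higher and 2 lower without array 2. The share of all tested genes at that unadjusted threshold was not counted for these fits. The unadjusted counts therefore have no background to be read against. With array 1 or 2 left out, the fit takes its residual spread from arrays 3 and 4 alone, with 1 residual degree of freedom. The ratios themselves stayed near their values over 4 arrays: SIM had 0.44 without either array, KRP1 had 0.31 without array 1 and 0.33 without array 2, and CYCB1;4, which moved most, had 0.59 and 0.33. Other settings moved some ratios by over 1.5 times. The scanner software's processed signals and the authors' value table gave 0.57 and 0.68 for CYCD4;1 and 0.70 and 0.81 for CYCB1;4. The value table also gave 0.46 for CYCD3;2 and 0.68 for SIM, and median centring gave -0.18 for CYCD3;3.

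**Figure D1:**
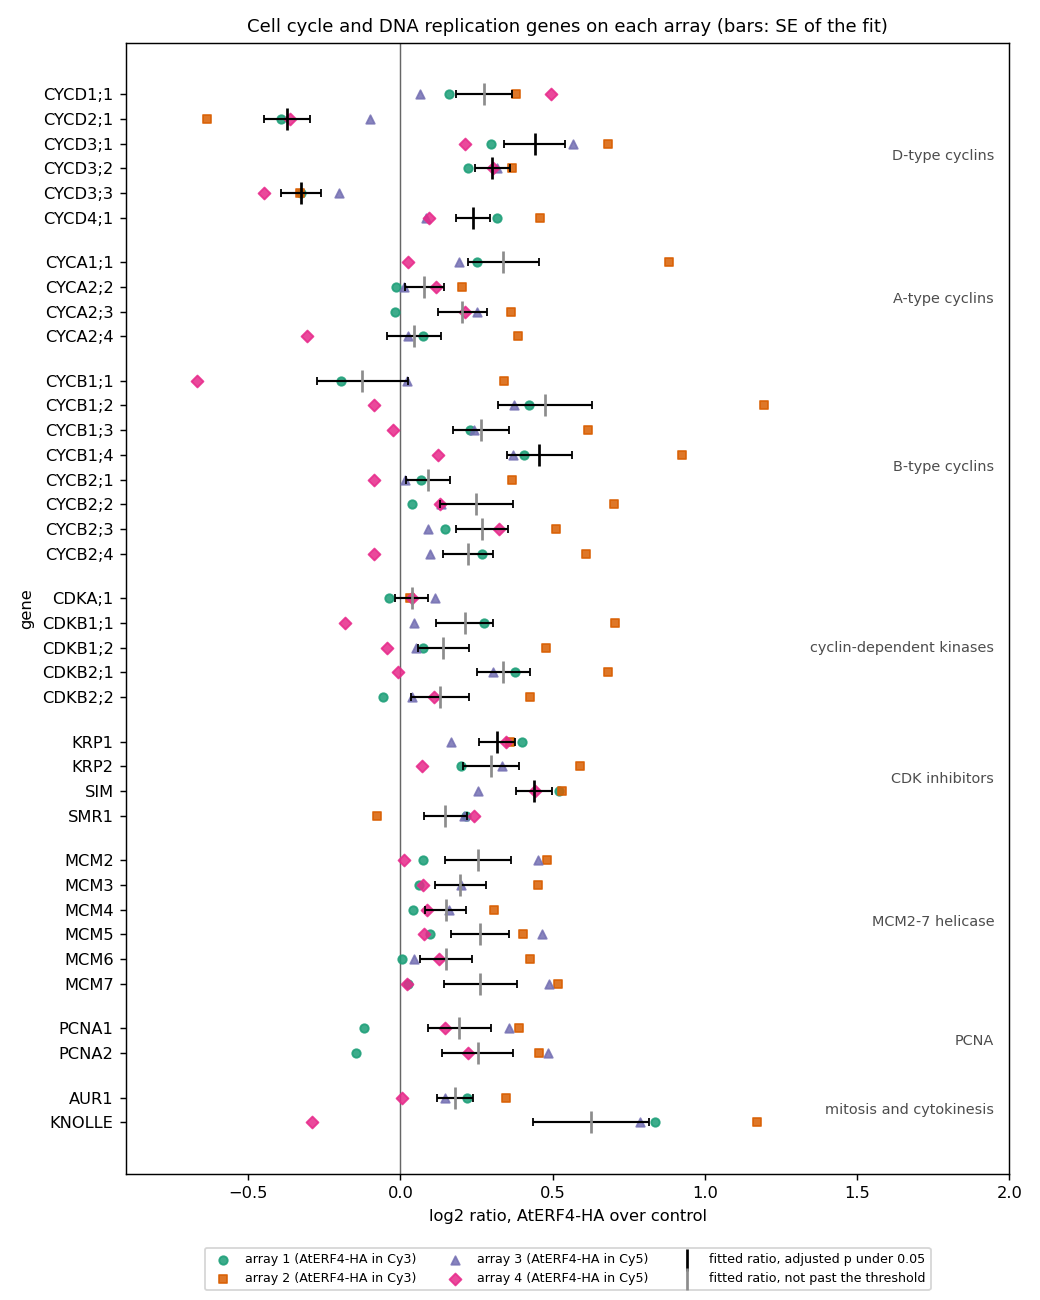
Log2 ratio of AtERF4-HA over control (x axis) for the 37 members tested (y axis, by role), with 1 symbol per array, the fitted ratio as a vertical tick (black where adjusted p is under 0.05) and its standard error as a bar. Of 37 fitted ratios, 34 lie right of 0, and for 29 members the array 2 symbol lies farthest to the right.

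The D cyclins, which link growth signals to the start of the cycle, held most of the calls: 3 of 6 higher and 2 of 6 lower. CYCD3;1 (AT4G34160), one of the CYCD3 genes known to prolong cell division in young leaves, had log2 signals of 10.52, 10.73, 10.90 and 10.42 in AtERF4-HA seedlings and of 10.23, 10.04, 10.33 and 10.21 in controls on arrays 1 to 4. Every AtERF4-HA value lay above every control value. The ratio was 0.44 ± 0.10 (1.36-fold, limma adjusted p = 0.0355).

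CYCD3;2 (AT5G67260), a close relative, gave the most even ratios among the called cyclins. Its signals were 11.02, 11.06, 11.09 and 11.19 in AtERF4-HA seedlings and 10.80, 10.70, 10.78 and 10.89 in controls, again without overlap. That makes a ratio of 0.30 ± 0.06 (1.23-fold, limma adjusted p = 0.0229), with single arrays between 0.22 and 0.37.

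The third CYCD3 gene ran in the other direction. CYCD3;3 (AT3G50070) had signals of 11.33, 11.22, 11.42 and 11.27 in AtERF4-HA seedlings, below the 11.66, 11.55, 11.62 and 11.71 of controls on every array and without overlap. Its ratio was -0.33 ± 0.06 (1.25-fold lower, limma adjusted p = 0.0265). With each array centred on its median in place of loess, the call was lost, as it was without array 4.

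CYCD2;1 (AT2G22490), a D cyclin known from work on sugar responses, was also lower. AtERF4-HA seedlings had signals of 9.36, 9.24, 9.44 and 9.24, and controls had 9.75, 9.87, 9.54 and 9.60. The genotypes did not overlap, though on array 3 they were only 0.10 apart. The ratio of -0.37 ± 0.08 (1.29-fold lower, limma adjusted p = 0.0292) lost its call under the same settings as CYCD3;3.

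CYCD4;1 (AT5G65420) was the smallest change called among the D cyclins. Signals of 9.04, 9.13, 9.02 and 8.93 in AtERF4-HA seedlings stood against 8.73, 8.67, 8.93 and 8.84 in controls. The genotypes overlapped, since the control value of array 3 was a little above the AtERF4-HA value of array 4. Ratios of 0.32 and 0.46 on arrays 1 and 2 were followed by 0.09 on both other arrays, a mean of 0.24 ± 0.06 (1.18-fold, limma adjusted p = 0.0397). That call was lost without any one of the arrays, without the dye term and with median centring. CYCD1;1 was above 0 on all 4 arrays, at 0.16, 0.38, 0.06 and 0.49, and did not pass (0.27 ± 0.09, limma adjusted p = 0.0916).

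None of the 4 A cyclins tested, which act in S phase and G2, passed the threshold. CYCA1;1 (AT1G44110) had ratios of 0.25, 0.88, 0.19 and 0.02, all above 0 but with array 2 far above the rest, and a mean of 0.34 ± 0.12 (limma adjusted p = 0.0957). CYCA2;3, known as a brake on endoreduplication, had 0.20 ± 0.08, and CYCA2;2 had 0.08 ± 0.06. The smallest value was that of CYCA2;4, with ratios of 0.08, 0.39, 0.02 and -0.31 and a 95% interval of -0.19 to 0.28. These ratios lie on both sides of 0, and the sign of the mean turned without array 2 (-0.033) and without array 3 (-0.037). The untested CYCA2;1 had ratios of 0.01, -0.04, 0.01 and -0.17 from signals not well above background.

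Of the 8 B cyclins, which drive entry into mitosis, 1 was called higher and none lower. CYCB1;4 (AT2G26760) had signals of 9.72, 9.89, 9.98 and 9.55 in AtERF4-HA seedlings and of 9.31, 8.96, 9.61 and 9.43 in controls. AtERF4-HA was higher on each array, but the genotypes overlapped, because the control signal of array 3 was above the AtERF4-HA signal of array 4. The ratio was 0.46 ± 0.11 (1.37-fold, limma adjusted p = 0.0385). It lost its call without the dye term, with a smaller background offset and without array 3.

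CYCB1;2 (AT5G06150) had a larger mean ratio but a wider spread. Its signals were 9.79, 10.04, 10.17 and 9.42 in AtERF4-HA seedlings and 9.37, 8.85, 9.80 and 9.51 in controls. Array 4 alone had control above AtERF4-HA. Ratios of 0.42, 1.19, 0.37 and -0.09 averaged 0.48 ± 0.15 and did not pass (limma adjusted p = 0.0826).

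CYCB1;1 (AT4G37490), the usual reporter gene of cells in G2 and mitosis, was the sole B cyclin below 0. AtERF4-HA seedlings had signals of 8.70, 8.75, 8.89 and 8.21, and controls had 8.89, 8.41, 8.87 and 8.88. Apart from the low AtERF4-HA value of array 4, the genotypes overlapped. The ratios of -0.19, 0.34, 0.02 and -0.67 gave -0.12 ± 0.15, with a 95% interval of -0.52 to 0.27 (limma adjusted p = 0.555), and the sign turned without array 1 (0.0091) and without array 4 (0.048). CYCB2;1, the B cyclin with the smallest ratio in size, had 0.07, 0.37, 0.01 and -0.09, a mean of 0.09 ± 0.07. The other B cyclins, CYCB1;3, CYCB2;2, CYCB2;3 and CYCB2;4, had means between 0.22 and 0.27 and did not pass.

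None of the 5 kinase genes passed. CDKA;1 (AT3G48750), the kinase that acts throughout the cycle, had ratios of -0.04, 0.03, 0.12 and 0.04, the smallest mean of any member in size (0.04 ± 0.05, 95% interval -0.10 to 0.18). Its normalised signals averaged 11.59 ± 0.12 in AtERF4-HA seedlings and 11.55 ± 0.06 in controls (SD, n = 4 arrays). The CDKB genes, whose transcripts accumulate around mitosis, had larger and more scattered ratios. CDKB2;1 (AT1G76540) had 0.37, 0.68, 0.30 and -0.01, a mean of 0.34 ± 0.09 (limma adjusted p = 0.0501), and CDKB1;1 had 0.27, 0.71, 0.05 and -0.18. For both, array 2 was highest and array 4 was below 0. CDKB1;2 averaged 0.14 ± 0.08 on the probe used and 0.07 on its other probe, and CDKB2;2 averaged 0.13 ± 0.09.

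Of the 4 CDK inhibitors, 2 were called higher and none lower, and their median ratio was 0.31. SIM (AT5G04470), the SIAMESE protein that moves leaf hair cells from division to endoreduplication, had the lowest adjusted p of all members. Its signals were 10.45, 10.29, 10.22 and 10.33 in AtERF4-HA seedlings and 9.93, 9.76, 9.97 and 9.89 in controls. The genotypes were apart by 0.26 or more on every array and did not overlap. The ratio was 0.44 ± 0.06 (1.35-fold, limma adjusted p = 0.0107).

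KRP1 (AT2G23430), a Kip-related inhibitor, had signals of 11.75, 11.75, 11.42 and 11.65 in AtERF4-HA seedlings and of 11.35, 11.39, 11.25 and 11.31 in controls. All AtERF4-HA values lay above all control values, with array 3 the closest. The ratio was 0.32 ± 0.06 (1.25-fold, limma adjusted p = 0.0229). KRP2, another of that family, had ratios of 0.20, 0.59, 0.33 and 0.07 and signals that did not overlap, but a mean of 0.30 ± 0.09 did not pass (limma adjusted p = 0.074). SMR1, a SIAMESE relative with a role in giant cells of sepals and leaves, had 0.22, -0.08, 0.21 and 0.24, with array 2 apart from the others, and a mean of 0.15 ± 0.07.

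**Figure D2:**
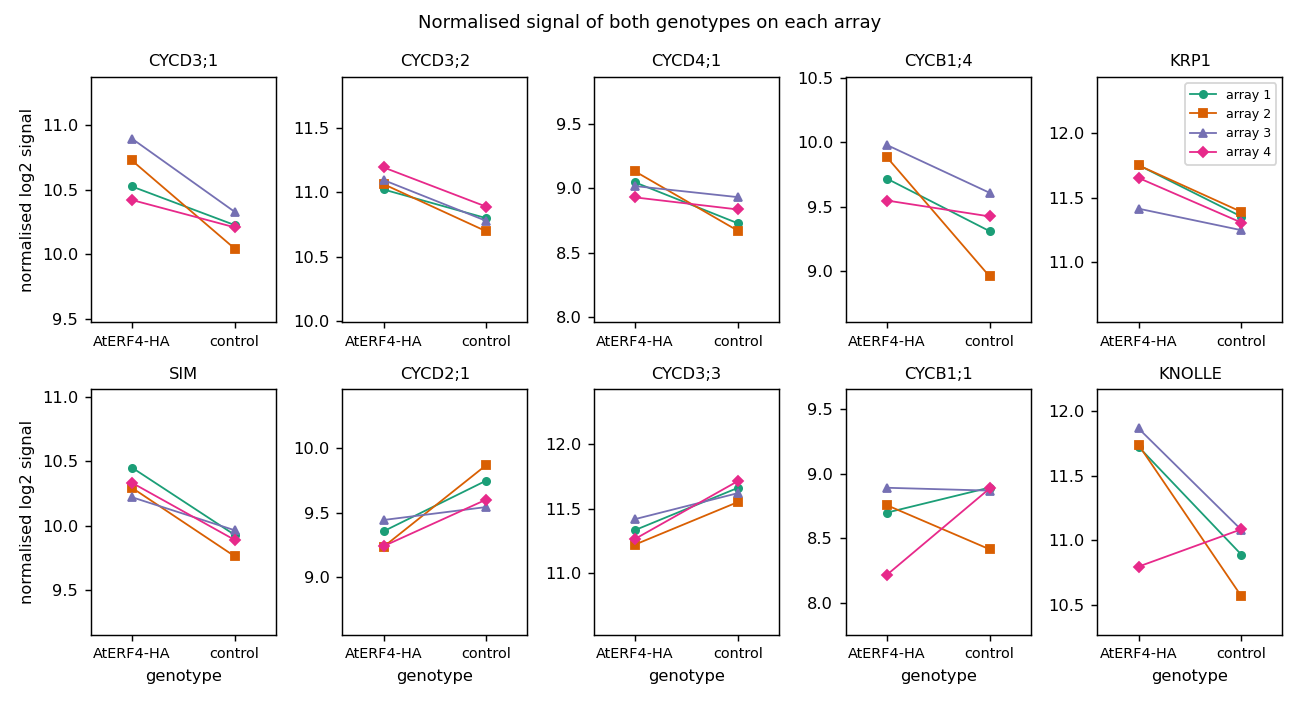
Normalised log2 signal (y axis) of AtERF4-HA (left) and control (right) for the 8 called members, CYCB1;1 and KNOLLE, with 1 line per array joining both genotypes; each panel spans the same height in log2 units. Lines of the called members all run one way within a panel, while the array 4 line of KNOLLE runs against its other lines and the lines of CYCB1;1 run both ways.

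Genes of DNA replication had small ratios above 0, and none of the 8 passed. The 6 MCM genes, whose products form the ring-shaped replicative helicase, were above 0 on every array, with means between 0.15 and 0.26. MCM5 (AT2G07690) had ratios of 0.10, 0.40, 0.46 and 0.08, a mean of 0.26 ± 0.09 (limma adjusted p = 0.105), and MCM7 had 0.02, 0.52, 0.49 and 0.02. MCM4, the smallest, had 0.04, 0.31, 0.16 and 0.09. Arrays 2 and 3 were higher than arrays 1 and 4 for each of the MCM genes but MCM6, which was higher on array 4 than on array 3. Genotype signals of MCM2 did not overlap, at 10.50 ± 0.19 in AtERF4-HA seedlings and 10.25 ± 0.07 in controls (SD, n = 4 arrays), nor did those of MCM5, at 10.57 ± 0.16 in AtERF4-HA seedlings and 10.31 ± 0.06 in controls (SD, n = 4 arrays). MCM3 and MCM6 had means of 0.20 ± 0.08 and 0.15 ± 0.09.

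Both PCNA genes, which encode the sliding clamp, were likewise highest on arrays 2 and 3 but were below 0 on array 1. PCNA1 (AT1G07370) had -0.12, 0.39, 0.36 and 0.15, a mean of 0.19 ± 0.10 (limma adjusted p = 0.214). PCNA2 had -0.15, 0.45, 0.48 and 0.22, a mean of 0.25 ± 0.12 (limma adjusted p = 0.167).

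KNOLLE (AT1G08560) had the largest ratio of any member and was not called. Its signals were 11.72, 11.74, 11.87 and 10.80 in AtERF4-HA seedlings and 10.89, 10.57, 11.08 and 11.09 in controls. On arrays 1 to 3 AtERF4-HA lay 0.79 to 1.17 above control, and on array 4 it lay below, at -0.29. The mean was 0.63 ± 0.19 (1.54-fold, 95% interval 0.13 to 1.12, limma adjusted p = 0.0712), so the interval left out 0 while the adjusted p missed the threshold. Leaving out 1 array gave 0.71 without array 1 (limma adjusted p = 0.173), 0.54 without array 2 (limma adjusted p = 0.296), 0.36 without array 3 (limma adjusted p = 0.0367) and 0.89 without array 4 (limma adjusted p = 0.00407). AUR1 (AT4G32830), an Aurora kinase of the spindle, had 0.22, 0.35, 0.14 and 0.00, a mean of 0.18 ± 0.06 (limma adjusted p = 0.0881).

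The mitotic members shared one array pattern, and the replication members another. The 14 mitotic members, namely the B cyclins, CDKB genes, AUR1 and KNOLLE, had median ratios of 0.22, 0.61, 0.12 and -0.03 on arrays 1 to 4. All 14 were highest on array 2, as 3908 of all 19492 tested genes were, and 11 (78.6%) were lowest on array 4, as 35.1% of all genes were. Part of this pattern ran with dye orientation. The fitted dye term is negative where ratios were higher with AtERF4-HA in Cy3. Its median was -0.17 for the 14 mitotic members, -0.02 for the 8 replication members and 0.01 for all tested genes. For the 8 replication members the medians were 0.03, 0.44, 0.40 and 0.08. A further list of 32 tested origin licensing and replication fork genes did not share that pattern, with medians of 0.00, 0.07, 0.06 and 0.09. All tested genes had medians between -0.01 and 0.03 on the 4 arrays. Members also varied more between arrays than other genes, with a median SD of 0.22 over arrays for the members and 0.15 for all tested genes. The 4 arrays are replicates without order, and these values were used in no test.

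**Figure D3:**
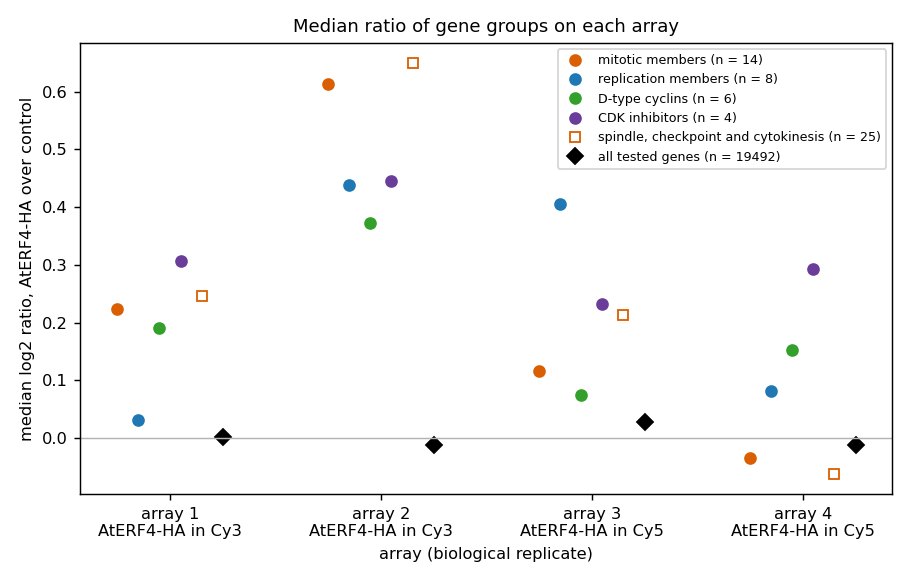
Median log2 ratio of AtERF4-HA over control (y axis) on each array (x axis) for 5 gene groups and for all tested genes, 1 symbol per group. Mitotic members lie at 0.61 on array 2 and at -0.03 on array 4, while all tested genes lie between -0.01 and 0.03.

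Signals of each genotype, compared between the arrays of one dye orientation, show in which channel the mitotic ratios moved. Between arrays 1 and 2 (AtERF4-HA in Cy3) the mitotic members' signals changed by a median of 0.13 in AtERF4-HA seedlings, with 13 of 14 up, and by -0.29 in controls, with 0 of 14 up. Between arrays 3 and 4 (AtERF4-HA in Cy5) they changed by -0.44 in AtERF4-HA seedlings, with 0 of 14 up, and by -0.19 in controls, with 2 of 14 up. Array 2 thus had both higher AtERF4-HA and lower control signals than array 1, and array 4 had lower AtERF4-HA signals than array 3. All tested genes changed by a median of -0.03 to 0.03 in these comparisons. KNOLLE changed by -1.07 in AtERF4-HA seedlings and by 0.00 in controls between arrays 3 and 4.

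Shoot meristem markers moved with this array pattern in part. STM, the homeobox gene that maintains the meristem, had ratios of -0.47, 0.81, -0.05 and -1.56 on arrays 1 to 4, and KNAT1 had -0.05, 0.21, -0.08 and -0.77. Both were highest on array 2 and lowest on array 4, and neither passed, with means of -0.32 ± 0.32 for STM and -0.17 ± 0.13 for KNAT1 (limma adjusted p = 0.484 and 0.358). CLV1, the receptor kinase of the meristem, was called higher at 0.35 ± 0.07 (limma adjusted p = 0.0221), so 1 of 3 tested markers was called, and the median of the 3 was -0.17. STM was well above background on 2 of 4 arrays in AtERF4-HA seedlings and on 4 in controls. Its AtERF4-HA signal was lowest on array 4, at 7.26, so its ratio there rests on a signal near background. WUS was well above background on 0 arrays in either genotype, and CLV3 on 0 in AtERF4-HA seedlings and 1 in controls. The summed signal of the 5 marker probes, which includes the added background offset, was 4193 to 5305 in AtERF4-HA seedlings and 3877 to 4246 in controls. CLV1 had by far the brightest probe of the 5, so that sum mainly follows CLV1. Their part in the members' ratios was not tested.

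Markers of other tissues also differed. Of the 5 leaf photosynthesis markers, 4 were called higher, at a median ratio of 0.86 over the list and with LHCA1 at 1.03 ± 0.06 (limma adjusted p = 0.00195). One of the 4, RCA, had ratios of -0.11, -0.02, 0.68 and 0.76, and lost its call without the dye term, with processed signals and without array 1 or array 2. The list's summed signal was 601281 to 748615 in AtERF4-HA seedlings and 365104 to 451748 in controls. Of the 4 markers of differentiated root, COBL9 (0.43 ± 0.07) and CASP1 (0.47 ± 0.08) were called higher, and the list's summed signal was 6941 to 9855 in AtERF4-HA seedlings and 5231 to 5948 in controls. Among root meristem markers, SCR was called lower (-0.31 ± 0.07, limma adjusted p = 0.0407). PLT2 (0.10 ± 0.08) and SHR (0.16 ± 0.10) were above 0 and not called, and PLT1 and WOX5 were too dim to test. The summed signal of the root meristem list was 5648 to 6414 in AtERF4-HA seedlings and 6495 to 7379 in controls. SCR had the brightest probe of that list, so its sum mainly follows SCR. The SCR call was lost under 6 of the alternatives, and with median centring its ratio was -0.16. CLV1, COBL9 and CASP1 lost theirs without array 1 and without array 2. Whether tissue make-up took part in the members' values was not tested.

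Other genes of the cycle, in 7 further lists of 110 genes with 108 tested, gave 14 calls higher (13.0%) and 3 lower (2.78%), at a median ratio of 0.12. Among all tested genes 13.6% were called higher and 11.9% lower, so the share called higher was close to that background. The spindle, checkpoint and cytokinesis list stood highest among the larger lists, with 6 of 25 called higher, none lower and a median of 0.29. AUR2 (0.43 ± 0.10), the condensin subunit gene SMC4 (0.38 ± 0.07), the checkpoint gene MAD2 (0.37 ± 0.09) and PATRONUS1 (0.34 ± 0.07), a protector of sister chromatid cohesion, had the largest called ratios. All 25 fitted ratios were above 0, and 24 of the 25 genes were highest on array 2. Its medians on arrays 1 to 4 were 0.25, 0.65, 0.21 and -0.06, close to those of the mitotic members.

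Replication-coupled histone H3.1 genes gave 3 calls of 5, all higher: HTR13 (0.42 ± 0.09), HTR2 (0.33 ± 0.07) and HTR1 (0.27 ± 0.07). These genes are near-identical copies, so a probe may read more than one of them. In the origin licensing and replication fork list, 2 of 32 were higher, the polymerase alpha subunit gene POLA2 (0.31 ± 0.07, limma adjusted p = 0.0429) and CDC45, a partner of the MCM helicase (0.30 ± 0.07, limma adjusted p = 0.0427), and none was lower. Its median was 0.07.

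Regulators of the E2F, RBR and MYB3R families had 2 of 14 called higher, none lower and a median of 0.06. The 2 were DEL3 (0.43 ± 0.07), an atypical E2F, and TSO1 (0.33 ± 0.06), a protein of the complex in which MYB3R factors act. Of 16 other cyclin and CDK genes, only CKS2, a small CDK-binding protein, was called, at 0.40 ± 0.07 (1.32-fold, limma adjusted p = 0.0212). None of the 4 endoreduplication and APC/C activator genes was called (0 also at an unadjusted limma p under 0.05), with fitted ratios from -0.09 for CCS52A1 to 0.19 for CDC27A.

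Other CDK inhibitors held the largest differences of the cell cycle genes examined, and these were lower in AtERF4-HA seedlings. SMR5 (AT1G07500), a SIAMESE relative induced by oxidative and DNA stress, had signals of 9.63, 9.53, 9.71 and 9.44 in AtERF4-HA seedlings and of 10.72, 10.88, 10.13 and 10.98 in controls. Its ratio was -1.10 ± 0.19 (2.15-fold lower, limma adjusted p = 0.0193), with all AtERF4-HA values below all controls. SMR7 (AT3G27630), known for the same responses, had ratios of -1.14, -1.63, -0.19 and -1.34, a mean of -1.08 ± 0.21 (2.11-fold lower, limma adjusted p = 0.0252). For both genes array 3 was nearest to 0. KRP6 was the third inhibitor called, at -0.35 ± 0.09 (limma adjusted p = 0.0461). The median of the 12 genes was -0.03. Fitted ratios were above 0 for 4 of them, and none was called higher.

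Regulators of cell proliferation in leaves had 1 of 11 called higher and 1 lower. ANT (AT4G37750), the AINTEGUMENTA factor that prolongs growth of organs and acts upstream of CYCD3;1, had signals of 10.86, 11.22, 11.07 and 10.38 in AtERF4-HA seedlings and of 10.04, 9.83, 10.35 and 9.81 in controls. Each AtERF4-HA value exceeded each control value. The ratio was 0.88 ± 0.11 (1.83-fold, limma adjusted p = 0.00853), and it was called under every alternative setting run. ARGOS, which acts upstream of ANT in the auxin response, was lower, at -0.67 ± 0.16 (1.59-fold lower, limma adjusted p = 0.0437), and lost its call with an offset of 16 and without array 1 or array 2. GRF5 had ratios of -0.12, 1.34, 0.07 and -0.87 and AN3 had 0.10, 0.39, 0.32 and -0.41, both highest on array 2 and lowest on array 4. All 15 named cell cycle genes of the 7 lists lost their calls without array 1 and without array 2. Of the 15, 7 lost them under at least 1 other setting too: AUR2, PATRONUS1, MAD2, HTR1, POLA2, CDC45 and KRP6.

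**Figure D4:**
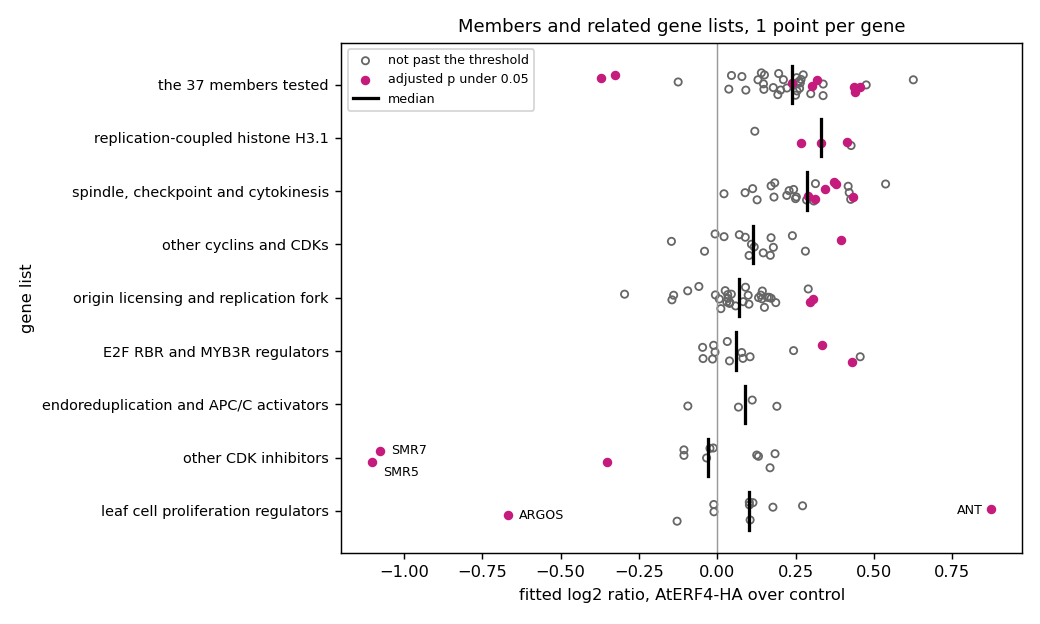
Fitted log2 ratio of AtERF4-HA over control (x axis) for the members and 8 related gene lists (y axis), with 1 point per gene, filled where adjusted p is under 0.05, and a bar at each list's median. Medians lie between -0.03 for the other CDK inhibitors and 0.33 for histone H3.1, and SMR5, SMR7, ARGOS and ANT lie farthest from 0.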

How the data were processed

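Spot intensity in green (Cy3) and red (Cy5) was read by Agilent Feature Extraction 9.1.3.1, as the submitters' processing notes say, and deposited by the authors with log10 ratios of red over green. Per the file headers the 4 arrays shared 1 slide and 1 scan, so neither could be tested as a batch. The authors' deposited value table holds natural log ratios: its slopes against log2 red over green were 0.693 on arrays 1 and 2 and -0.693 on arrays 3 and 4. Column medians there were -0.22, -0.05, -0.14 and -0.08, and the centring behind it is unknown.

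Median signals were background-corrected (normexp, offset 50) and loess-normalized within arrays, with control spots at weight 0 and outlier-flagged spots (0.0451%) left out, in limma 3.58.1 under R 4.3.3. A kept probe was well above background in at least 1 genotype on all 4 arrays, and of several for a gene the brightest was used. Signals per genotype were additionally scaled between arrays by Aquantile. Ratios were fitted with genotype and dye terms (2 residual degrees of freedom, prior 2.79), and p-values were adjusted over 19492 genes. The script was tested on simulated data. The number of arrays limits the precision. With the dye term, the residual spread behind the p-values comes from replicates of the same dye orientation, moderated by that of all tested genes. A difference between the 2 orientations is therefore not part of it.

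Members and lists were chosen with earlier results of these data known. Named with values on every array were, in each role group, up to 4 called members with the largest ratios and the member with the smallest. From each further list up to 4 called genes were named, most of them by their fitted ratio alone. KNOLLE, CYCB1;1, CYCB1;2, CYCA1;1, CDKB2;1 and other uncalled genes given by array were singled out after their values were seen. All 38 members matched the RefSeq gene table (TAIR10.1) by locus, in which KNOLLE is SYP111, KRP1 is ICK1, SMR1 is LGO and SMC4 is SMC3. No genome build of the array is stated, so coordinates are left out. Promoter sequence was not used here, so the planned motif search was not run. The alternatives tried were other background corrections, normalizations, probe filters and probe rules, a fit without the dye term, the authors' value table, and leaving out each array.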

Additional observations from a re-analysis of the deposited data

Results flagged for a closer look

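Over 65 genes examined, of them the 37 members tested, 2 had 1 array far from the other 3, where chance alone gives about 1 group in 20. CYCB2;2 had a ratio of 0.70 on array 2 and of 0.04, 0.13 and 0.13 on the others, a gap of 0.853 of its whole range. SMR1 had -0.077 on array 2 and 0.22, 0.21 and 0.24 on the others, a gap of 0.899 of its range.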

How the results depend on the processing

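Of all tested genes 4983 were called, and of the members 6 higher and 2 lower. Without background correction 9120 genes were called, with 17 members higher (21.5% of all genes higher, 25.3% lower) and, of the 7 further cell cycle lists, 34 genes higher and 5 lower (14 and 3 in the report). With the scanner software's processed signals these were 8972 genes, 17 members higher (5047 of all genes higher, 3925 lower) and 51 list genes higher. Median centring gave 14 members higher, 0 lower (15.6% and 9.08% of all genes) and 23 list genes higher. An offset of 16 gave 9 list genes higher, where 11.5% of all genes were called higher. The authors' value table, turned to the dye labels and put on the log2 scale, gave 10956 genes, 28 members higher and 2 lower (40.5% and 15.7% of all genes), 77 list genes higher and a members' median of 0.50, where the median over all genes was 0.16. Leaving out 1 array in turn gave 659 to 7119 genes, 0 to 8 members higher, 0 to 2 lower, 0 to 21 list genes higher, 0 to 5 lower and a members' median of 0.14 to 0.32. Without replicate 3, 6 members were called higher and 2 lower, beside 16.6% and 19.9% of all genes. Without replicate 4, 8 members were called higher and 0 lower, beside 10.8% and 10.2% of all genes. The sign turned without replicate 2 or 3 for CYCA2;4, which ranged from -0.037 to 0.128, and without replicate 1 or 4 for CYCB1;1, which ranged from -0.298 to 0.048. Other alternatives kept every count within 1.5 times. In each setting 33 to 35 of 37 members were above 0. The background for this count changed with the setting. Among all genes the share above 0 ran from 48.6% without background correction to 68.3% in the authors' value table. Centring each array on its median gave 67.8%. The cause of these shifts was not tested. Both genotypes of a replicate share an array, so each ratio is already paired. Probes near background limit the precision of CYCA2;1 and of the dim meristem markers.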
